A study of Mus musculus with 42 samples.

Results

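The genes described here are 10 members of the transcriptional network that keeps early mouse cells pluripotent: Pou5f1, Nanog, Sox2, Esrrb, Klf2, Klf4, Klf5, Tfcp2l1, Zfp42 and Tdgf1. They were taken by symbol, with every probe set that the platform annotation assigns to them. This gave 17 of the 45101 probe sets on the array, and 10 of its 18193 named genes. The brightest probe set on average stands for each gene, and all 10 passed the filter on low intensity and were tested. Of the 17 probe sets, 16 passed that filter on their own. The exception is a Tfcp2l1 probe set (1460714_at) that read 1 to 15.1 on every array. Of the 10 genes, 9 encode transcription factors, and Tdgf1 encodes a membrane-bound co-receptor for the growth factor Nodal.

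Pou5f1 encodes Oct4, a POU-domain factor that binds an octamer sequence, often beside the HMG-box factor Sox2, and Nanog is a homeodomain factor that shares many binding sites with both. Esrrb, Tfcp2l1 and the Krüppel-like factors Klf2, Klf4 and Klf5 are auxiliary factors that help hold mouse embryonic stem cells in the naive state. Zfp42 (Rex1) and Tdgf1 (Cripto) are long used as marker genes whose transcripts accompany that state. In the embryo, Oct4 and Nanog become confined to the inner cell mass and epiblast, while Klf5 is also needed in the trophectoderm.

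Transcripts were measured in mouse embryos of the strain B6D2F1 that received a morpholino at the 1-cell stage or were left uninjected, and were cultured until collection 20 h or 44 h later. A morpholino is an antisense oligomer that blocks translation or splicing. The labels do not say which action these oligomers have, so the amount of the target's own mRNA does not check the knockdown. The question posed by the design is which transcripts depend on each targeted factor. At 20 h, the Oct4 experiment held embryos with an Oct4 morpholino and uninjected embryos, and the Sall4 experiment held embryos with a Sall4 morpholino and uninjected embryos. The Nanog experiment held, both at 20 h and at 44 h, embryos with a Nanog morpholino, embryos with a control morpholino whose target is absent from the mouse, and uninjected embryos. At 44 h, a joint Oct4 and Sall4 experiment held embryos with the Oct4 morpholino, embryos with the Sall4 morpholino, and 1 shared set of control-morpholino and uninjected embryos. Each of the 14 groups had 3 arrays, titled as biological replicates, and the number of embryos behind an array is not stated in the labels.

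The 42 arrays lie on 2 intensity scales. The 18 arrays of the Nanog experiment had medians of 193 to 227, and the other 24 arrays had medians of 26.1 to 33.3. Intensities were therefore compared only within one of these sets. Fold changes and SEs are on the scale of log2(intensity + 16), which understates changes of dim genes. A gene passed at a Benjamini-Hochberg adjusted p under 0.05 over the 15502 genes tested with limma, and every adjusted p below comes from that fit unless said otherwise. With 3 arrays against 3, an exact permutation test cannot go below p = 0.1, and the number of arrays limits the precision. RNA came from whole embryos, so fewer cells of a type and less RNA per cell cannot be told apart.

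Since the knockdowns act on DNA-binding factors of the same network, the stretches upstream of the members' transcription starts were read from RefSeq (GRCm38.p6). Entries were found for 9 of the 10 members, and Klf5 had none. Motifs were searched on both strands in the 250 bases before each start: the octamer ATGCAAAT, its first 7 letters ATGCAAA, the Sox core ACAATG and the Klf core GGGTG. The 7-letter form overlaps the octamer by construction and was added after the sequences had been seen. Of 32851 RefSeq promoters, 1.6% held the octamer, 4.12% its 7-letter form, 10.7% the Sox core and 52% the Klf core. The stretches of Pou5f1, Nanog, Sox2 and Zfp42 are shown because Pou5f1 and Nanog were targeted and Nanog, Sox2 and Zfp42 were the only members with a match to the 7-letter form. Capitals mark the 7-letter octamer form and, in Nanog, the Sox core as well, each read on either strand. The stretch of Pou5f1 lies before the first of 2 listed starts, chr17:35505782-35506031 on the plus strand, and held 5 matches to the Klf core and none of the other motifs, so it has no capitals. The stretch before its other start, chr17:35508557-35508806 on the plus strand, is not shown and held the Sox core 158 bases before that start and no Klf core. For Nanog, the stretch before its downstream start, chr6:122707315-122707564 on the plus strand, held the 7-letter form 151 bases and the Sox core 143 bases before the start. The same pair lies 75 and 67 bases before its upstream start, whose stretch is not shown and held no Klf core. Sox2 upstream of its start, chr3:34649745-34649994 on the plus strand, held the 7-letter form 99 bases before the start. On the minus strand, the stretch of Zfp42, chr8:43307010-43307259, held the whole octamer, 186 bases before the start, of which the last 7 letters are in capitals. The Klf core, not capitalized, matched 3 times in this stretch and 3 times in that of Nanog, and was absent from that of Sox2. A match describes these letters and is not evidence that a factor binds there.
Pou5f1: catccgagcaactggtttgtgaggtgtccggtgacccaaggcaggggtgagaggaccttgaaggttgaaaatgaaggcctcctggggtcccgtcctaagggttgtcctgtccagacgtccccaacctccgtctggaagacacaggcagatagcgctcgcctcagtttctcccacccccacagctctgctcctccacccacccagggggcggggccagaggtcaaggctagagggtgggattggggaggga
Nanog: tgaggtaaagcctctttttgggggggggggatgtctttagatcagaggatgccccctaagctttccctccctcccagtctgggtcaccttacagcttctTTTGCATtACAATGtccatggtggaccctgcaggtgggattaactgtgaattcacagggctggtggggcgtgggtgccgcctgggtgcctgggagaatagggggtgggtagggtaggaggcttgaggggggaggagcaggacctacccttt
Sox2: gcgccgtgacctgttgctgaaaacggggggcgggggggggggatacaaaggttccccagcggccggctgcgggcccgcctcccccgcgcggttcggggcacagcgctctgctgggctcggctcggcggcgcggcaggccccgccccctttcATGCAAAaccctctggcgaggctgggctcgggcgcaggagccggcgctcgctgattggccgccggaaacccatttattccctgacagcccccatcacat
Zfp42: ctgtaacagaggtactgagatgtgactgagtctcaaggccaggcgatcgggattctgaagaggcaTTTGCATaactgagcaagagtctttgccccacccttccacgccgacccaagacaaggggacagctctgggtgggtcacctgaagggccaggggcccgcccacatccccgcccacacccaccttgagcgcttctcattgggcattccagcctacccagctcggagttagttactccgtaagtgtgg

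Without any injection, transcripts of Tdgf1, Nanog, Esrrb, Klf2 and Klf5 rose between 20 h and 44 h, and Pou5f1 was bright at both times. In uninjected embryos of the Nanog experiment, 5 of the 10 members were higher at 44 h than at 20 h and 0 were lower, against a background of 9.46% of all tested genes called higher. The median log2 difference of the members was 1.75, beside 0.02 for all genes tested.

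**Figure D1:**
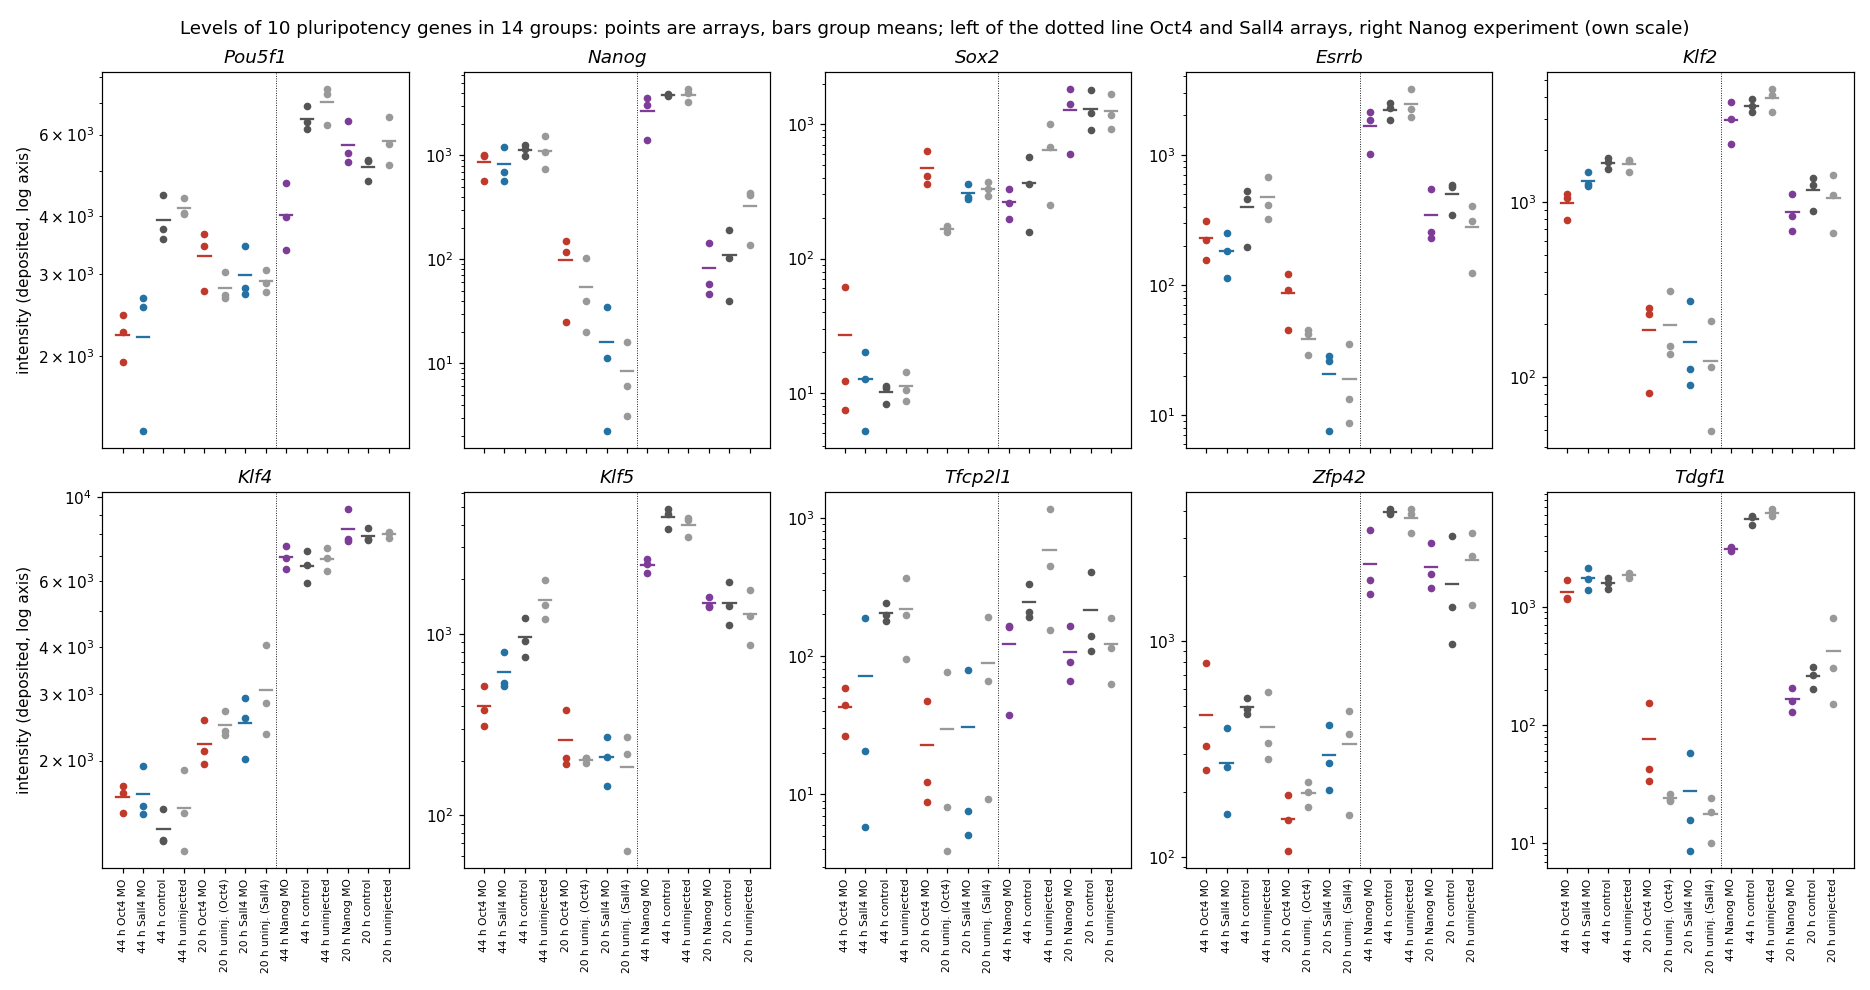
Deposited intensity of the 10 genes on a log axis, by group, with points for the 3 arrays and bars for group means, the Oct4 and Sall4 arrays left of the dotted line and the Nanog experiment right of it. Nanog and Tdgf1 read far higher in every 44 h group than in every 20 h group of the same set, Sox2 read lower at 44 h, and Pou5f1 was bright in all 14 groups.

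Pou5f1 transcript was bright at both times. Its intensity was 7325, 7523 and 6290.2 in uninjected embryos at 44 h, against 6534, 5158 and 5731 at 20 h, a log2 difference of 0.28 (SE 0.19, adjusted p = 0.299). The ranges overlapped. Ordered by mean within the Nanog experiment, Pou5f1 stood at 7046 ± 662 in uninjected and 6495 ± 376 in control-morpholino embryos at 44 h (SD, n = 3 each). Next came 5807 ± 691 in uninjected, 5706 ± 620.1 in Nanog-morpholino and 5108 ± 294 in control-morpholino embryos at 20 h (SD, n = 3 each), and last 4034 ± 665 in Nanog-morpholino embryos at 44 h. Each group's arrays overlapped those of the next in this order, except that every Nanog-morpholino array at 44 h lay below every other array of the set. On the Oct4 and Sall4 arrays the order was 4169.9 in uninjected and 3925 in control-morpholino embryos at 44 h, then 3293, 2994, 2901 and 2803 in the 20 h groups (Oct4 morpholino, Sall4 morpholino, uninjected of the Sall4 and of the Oct4 experiment). The lowest means were 2218 with the Oct4 morpholino and 2203 with the Sall4 morpholino at 44 h. Neighbours overlapped there too, apart from the gap between uninjected embryos of the Oct4 experiment at 20 h and Oct4-morpholino embryos at 44 h.

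Nanog transcript was dim at 20 h and bright at 44 h. It read 3240.2, 4371 and 3963 in uninjected embryos at 44 h, against 138, 433 and 419 at 20 h, a 12.4-fold rise (log2 3.63, SE 0.53, adjusted p = 4.06e-06). No array of either time overlapped the other. On the Oct4 and Sall4 arrays, Nanog read 563 to 1526 in the 12 arrays of 44 h and 2.25 to 149.8 in the 12 arrays of 20 h.

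Tdgf1, the Nodal co-receptor, had the largest rise among the members in uninjected embryos of the Nanog experiment. Its intensity was 6303, 6749 and 5842 in uninjected embryos at 44 h, against 812, 304 and 151 at 20 h, or 17.8-fold (log2 4.16, SE 0.40, adjusted p = 3.73e-09). The 20 h arrays were widely scattered and all lay below the 44 h arrays. In injected embryos Nanog rose more than Tdgf1, by 4.79 against 4.13 on the log2 scale with the Nanog morpholino and by 5.11 against 4.35 with the control morpholino. Zfp42, a zinc-finger factor and the other marker gene, read 3893, 4103 and 3176 at 44 h, against 3168, 2472 and 1471 at 20 h. Its log2 difference was 0.71 and did not pass (adjusted p = 0.237).

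Sox2 differed in sign from these genes. It read 250.5, 1011 and 678 in uninjected embryos of the Nanog experiment at 44 h, against 1666, 1164 and 923 at 20 h, a log2 difference of -1.10 (SE 0.44) that did not pass (adjusted p = 0.0667). The arrays overlapped, since 1 array at 44 h exceeded the lowest at 20 h. In control-morpholino embryos the fall passed: 157, 361 and 573 at 44 h against 1209, 910.4 and 1806 at 20 h, or 3.77-fold (adjusted p = 0.00154). In Nanog-morpholino embryos it passed as well, at 4.31-fold (adjusted p = 0.000829). On the Oct4 and Sall4 arrays, 1 Oct4-morpholino array at 44 h read 61.1 and the remaining 44 h arrays read 5.24 to 20.1, below the median of any array, while the 20 h arrays read 157 to 632.

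Among the auxiliary factors, the orphan nuclear receptor Esrrb rose 9.12-fold in uninjected embryos of the Nanog experiment (log2 3.19, SE 0.43, adjusted p = 1.2e-06), with 1961, 3197 and 2254 at 44 h against 403, 310.1 and 123 at 20 h. Klf2 read 4099, 4442 and 3270.5 at 44 h, against 1422, 669.5 and 1092 at 20 h, and rose 3.81-fold (adjusted p = 0.000316). Klf5 read 4253, 4345 and 3428 at 44 h, against 1252, 873 and 1756 at 20 h, and rose 3.18-fold (adjusted p = 0.000334). None of these 3 genes had an overlap between the times. With Nanog, Tdgf1 and Zfp42, 6 members lay higher on every 44 h array than on any 20 h array, beside 18.2% of all genes. Tfcp2l1, a grainyhead-family factor, scattered at 446, 1158 and 155 at 44 h against 62.6, 188 and 114 at 20 h, and did not pass (log2 1.82, adjusted p = 0.0937). Klf4 read 6364, 6896 and 7321 at 44 h and 7808, 8049.8 and 8069.7 at 20 h, a log2 difference of -0.22 that did not pass (adjusted p = 0.431), although every 44 h array lay lower, as for 23% of all genes.

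**Figure D2:**
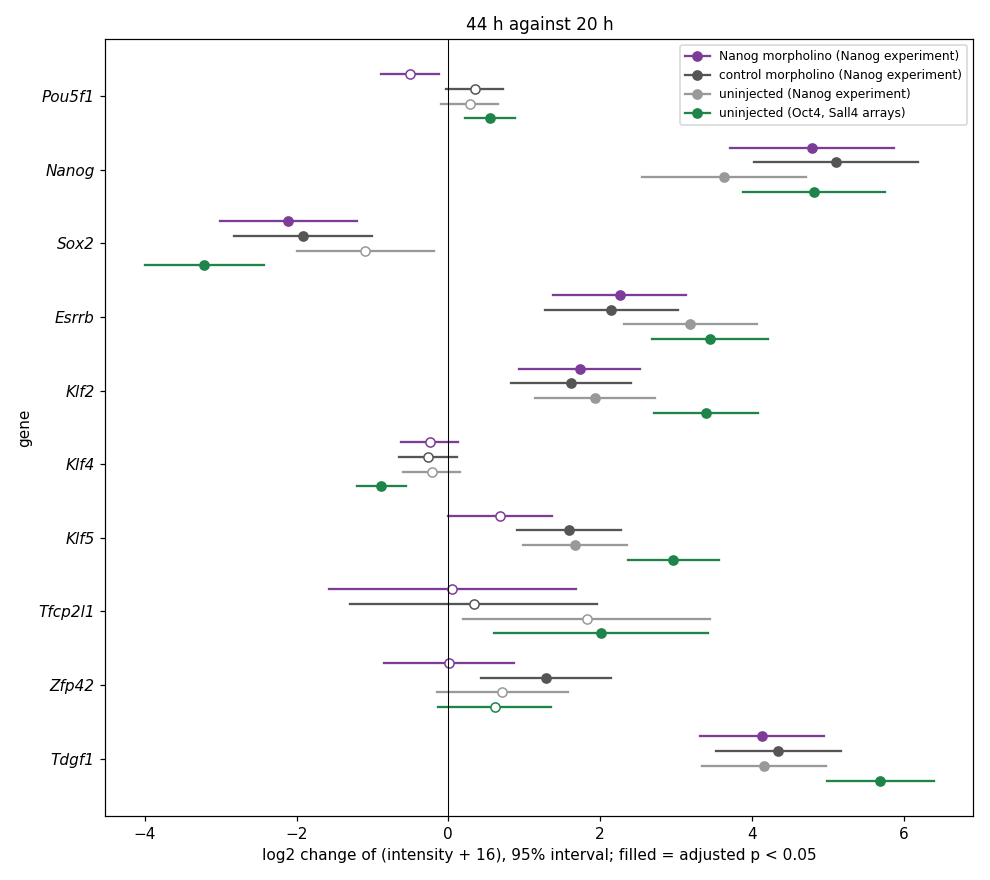
Log2 difference of 44 h over 20 h for each gene, with its 95% interval, in Nanog-morpholino, control-morpholino and uninjected embryos of the Nanog experiment and in uninjected embryos of the Oct4 and Sall4 arrays. Filled symbols passed at an adjusted p under 0.05: Nanog, Tdgf1, Esrrb and Klf2 did so in all 4, and Sox2 lay below 0 in all 4.

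Injected embryos of the Nanog experiment were compared over time in the same way. In Nanog-morpholino embryos, 4 members rose and 1 fell, beside a background of 8.16% of genes called higher and 11.9% called lower. In control-morpholino embryos, 6 members rose and 1 fell, beside 7.25% and 16.3%. Klf5 was not among the calls in Nanog-morpholino embryos (log2 0.68, adjusted p = 0.164), against a rise of 1.59 in control-morpholino embryos (adjusted p = 0.000654). Zfp42 had a log2 difference of 0.01 with the Nanog morpholino (adjusted p = 0.995) and rose 2.43-fold with the control morpholino (adjusted p = 0.0241), where leaving out 1 array ended the call in 5 of 6 fits. The difference between these time changes did not pass for either gene (lowest adjusted p of any member = 0.14, for Pou5f1).

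Uninjected embryos of the Oct4 and Sall4 arrays at 44 h were also set against the mean of both 20 h uninjected groups, which crosses separately labelled experiments, so time and experiment cannot be told apart there. In that comparison 7 members were higher and 2 were lower at 44 h, beside 20.4% of all genes called higher and 24.8% called lower. Tdgf1 was 51.8-fold and Nanog 28.1-fold higher at 44 h (adjusted p = 2.44e-14 and 3.41e-10). Both genes were dim at 20 h. Tdgf1 read 22.6, 23.4 and 26.1 in uninjected embryos of the Oct4 experiment and 10.1, 18.3 and 24.4 in those of the Sall4 experiment. Nanog read 39.5, 102 and 20.0 in the first of these groups and 16.1, 6.11 and 3.13 in the other. The sizes moved with the settings. Over the settings and left-out arrays the log2 difference ran from 4.51 to 6.48 for Tdgf1 and from 3.64 to 5.82 for Nanog. Klf2 was 10.5-fold, Esrrb 10.9-fold and Klf5 7.79-fold higher, each with an adjusted p of 4.26e-09 or less. Pou5f1 was 1.46-fold higher (adjusted p = 0.00581) and Tfcp2l1 4.03-fold higher (adjusted p = 0.0172), a call that ended in 3 of 9 fits that left out 1 array. Sox2 was 9.29-fold lower at 44 h (adjusted p = 2.98e-08) and Klf4 1.85-fold lower (adjusted p = 2.83e-05).

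At 20 h after injection, no member passed in any knockdown. The count was 0 of 10 with the Oct4 morpholino, beside 2.01% of all genes called by limma, and 2 members had an unadjusted p under 0.05, namely Sox2 and Tdgf1. It was 0 of 10 with the Sall4 morpholino, beside 0.239%, and 0 of 10 with the Nanog morpholino, beside 0.619%. Log2 differences of the members ran from -0.40 to 1.37 with the Oct4, from -1.07 to 0.34 with the Sall4 and from -0.79 to 0.41 with the Nanog morpholino. With the last of these and with the Sall4 morpholino, no member reached an unadjusted p under 0.05, and the lowest adjusted p of a member was 0.798 with the Sall4 and 0.877 with the Nanog morpholino. Sox2 read 415, 632 and 360.5 in Oct4-morpholino embryos, against 157, 174 and 170.1 in uninjected embryos. Every injected array lay above every uninjected one, as for 8.53% of all genes, and the log2 difference was 1.37 (95% interval 0.47 to 2.27, adjusted p = 0.117). Tdgf1 was the only other member without overlap there, at 42.9, 33.7 and 153 against 22.6, 23.4 and 26.1. The Oct4 and the Sall4 experiment had no control-morpholino embryos at 20 h, so target knockdown and injection cannot be told apart in them.

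The targeted members themselves were read at 20 h as well. Pou5f1 read 3448, 2769 and 3662 in Oct4-morpholino embryos, against 2666, 2706 and 3036 in uninjected embryos (log2 0.22, adjusted p = 0.868). Nanog read 46.9, 58.6 and 144 in Nanog-morpholino embryos, against 39.7, 103 and 191 in control-morpholino embryos (log2 -0.29, 95% interval -1.37 to 0.79). Arrays overlapped for both genes, and Nanog was dim and scattered in both groups.

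At 44 h, Pou5f1 and Klf5 transcripts were lower in Oct4-morpholino than in control-morpholino embryos, and no member was higher. These 2 of 10 stand beside a background of 6.23% of all genes called lower. The median log2 difference of the members was -0.56, beside 0.02 for all genes tested. Pou5f1 read 2254, 2458 and 1942 in Oct4-morpholino embryos, against 3573, 4439.7 and 3762 in control-morpholino embryos. All 3 knockdown arrays lay below all 3 control arrays, and the difference was 1.76-fold (log2 -0.82, SE 0.19, adjusted p = 0.00331). The call held without each of the 6 arrays in turn, and on the arrays of the experiment alone the adjusted p was 0.0864.

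Klf5, the Krüppel-like factor shared with the trophectoderm, read 311, 515 and 383 in Oct4-morpholino embryos, against 742, 1233 and 910.0 in control-morpholino embryos. Again no array overlapped, and Klf5 was 2.33-fold lower (log2 -1.22, SE 0.34, adjusted p = 0.0154). Without Oct4-morpholino replicate 1 its adjusted p was 0.0744, and without control replicate 2 it was 0.0976. Klf2 and Tfcp2l1 likewise had no overlap without passing. Klf2 read 793, 1053 and 1118 with the Oct4 morpholino, against 1695, 1556 and 1790.4 with the control morpholino (log2 -0.77, adjusted p = 0.226), and on the arrays of the experiment alone it passed (adjusted p = 0.0433). Tfcp2l1 read 58.4, 44.3 and 26.6, against 198, 241 and 180.1 (log2 -1.94, 95% interval -3.57 to -0.32, adjusted p = 0.12). These 4 members without overlap compare with 14.6% of all genes whose knockdown arrays all lay lower.

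The remaining members overlapped between the groups. Nanog read 566, 998 and 1014 in Oct4-morpholino embryos, against 1156, 1267 and 986 in control-morpholino embryos (log2 -0.44, adjusted p = 0.713). Esrrb read 156, 307 and 219.5, against 197, 529 and 454 (log2 -0.69, adjusted p = 0.365). For both genes 1 control array reached into the range of the knockdown arrays. Of the marker genes, Tdgf1 read 1162, 1688 and 1182, against 1419.6, 1586 and 1758 (log2 -0.25, adjusted p = 0.8), and Zfp42 read 792, 325 and 253, against 485, 547 and 457 (log2 -0.28, adjusted p = 0.782). Oct4-morpholino replicate 1 was the brightest of these 6 arrays for Zfp42, and the other knockdown arrays were the dimmest. Klf4 had 0.29 (adjusted p = 0.387), and Sox2 had 0.51 (adjusted p = 0.566) at intensities near the floor.

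With the Sall4 morpholino at 44 h, Pou5f1 alone among the members passed, 1 of 10 beside 2.12% of all genes called lower. It read 2556, 1384 and 2668 in Sall4-morpholino embryos, against 3573, 4439.7 and 3762 in control-morpholino embryos. Replicate 2 stood far below its fellows, yet all 3 lay below the controls, and the difference was 1.84-fold (log2 -0.88, SE 0.19, adjusted p = 0.00452). Without replicate 2 the log2 difference was -0.58 and did not pass (adjusted p = 0.0815), and on the arrays of the experiment alone the adjusted p was 0.146. The same replicate had the lowest Nanog and Zfp42 values of its group.

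Klf2 and Zfp42 were the other members without overlap, 3 in all, beside 12.6% of all genes. Klf2 read 1489, 1229.9 and 1263 with the Sall4 morpholino, against 1695, 1556 and 1790.4 with the control morpholino (log2 -0.34, adjusted p = 0.789). Zfp42 read 397, 157 and 261, against 485, 547 and 457 (log2 -0.92, adjusted p = 0.262). Tfcp2l1 scattered most, at 5.85, 20.4 and 188 with the Sall4 morpholino, and its log2 difference of -2.02 did not pass (adjusted p = 0.172). Without its bright replicate 3, the adjusted p was 0.0279. Klf5 read 539.9, 519 and 791, against 742, 1233 and 910.0 (log2 -0.62, adjusted p = 0.38). The Klf5 groups overlapped through Sall4-morpholino replicate 3. Esrrb read 249.8, 183 and 114, against 197, 529 and 454 (log2 -0.99, adjusted p = 0.225), and Nanog had a log2 difference of -0.52 (adjusted p = 0.742). The values of Klf4, Tdgf1 and Sox2 were 0.30, 0.12 and 0.10 on the log2 scale, and none passed.

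With the Nanog morpholino at 44 h, Pou5f1 was again the 1 member of 10 that passed, beside 1.52% of all genes called lower. Pou5f1 read 3394, 4722 and 3988 in Nanog-morpholino embryos, against 6913, 6388 and 6183 in control-morpholino embryos. All knockdown arrays were lower, by 1.62-fold on average (log2 -0.70, SE 0.19, adjusted p = 0.0235). The call ended without Nanog-morpholino replicate 1 (adjusted p = 0.146), without control replicate 1 (0.0824) or without control replicate 2 (0.0688).

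In all, 6 of 10 members had every Nanog-morpholino array below every control array, beside 9.01% of all genes: Pou5f1, Nanog, Klf5, Tfcp2l1, Zfp42 and Tdgf1. Against uninjected embryos of the same experiment, 3 of 10 members did (Pou5f1, Klf5 and Tdgf1), beside 16.5% of all genes. Nanog itself read 3086, 1412 and 3562 in Nanog-morpholino embryos, against 3825, 3719 and 3939 in control-morpholino embryos. Replicate 2 was much dimmer than the other knockdown arrays, and the log2 difference of -0.61 (95% interval -1.69 to 0.47) did not pass (adjusted p = 0.651). Klf5 read 2159, 2577 and 2433, against 4602, 4889.9 and 3811 (log2 -0.88, adjusted p = 0.14). Both groups were tight, with a wide gap between them. Tdgf1 showed the same layout, with 3186, 2997 and 3148 against 4938, 5802 and 5831 (log2 -0.82, adjusted p = 0.291). The spread used for Tdgf1 also carries its scattered 20 h arrays, so this result does not show that Tdgf1 was unchanged. Zfp42 read 1659, 1917 and 3283, against 3982, 4104 and 3894 (log2 -0.86, adjusted p = 0.288). Tfcp2l1 read 166, 163 and 37.6, against 331, 209.6 and 193 (log2 -1.07, adjusted p = 0.569), and replicate 3 of the knockdown stood far below the others. Among the members with overlap, Esrrb had -0.47, Klf2 -0.30, Sox2 -0.31 and Klf4 0.08 on the log2 scale, and none passed.

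**Figure D3:**
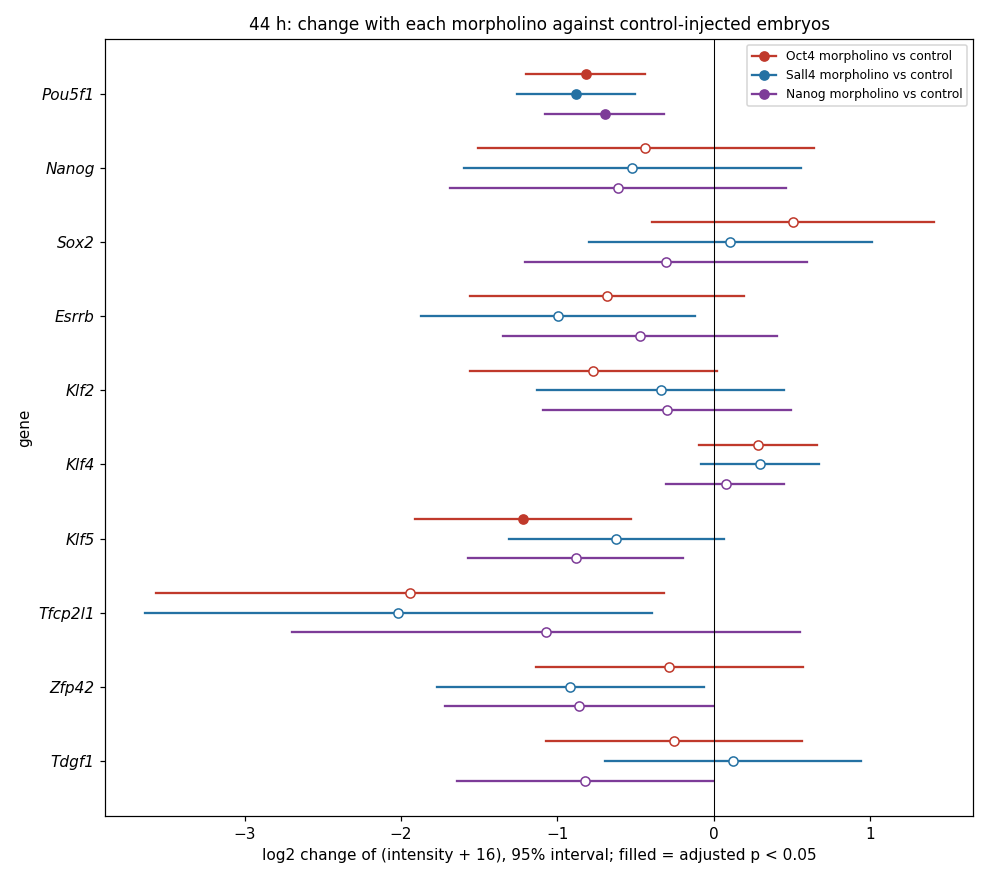
Log2 difference of each gene at 44 h against control-morpholino embryos, with its 95% interval, for the Oct4, Sall4 and Nanog morpholinos. Filled symbols passed at an adjusted p under 0.05: Pou5f1 with all 3 morpholinos, at -0.82, -0.88 and -0.70, and Klf5 with the Oct4 morpholino, at -1.22.

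The Oct4 and Sall4 knockdowns at 44 h share their control and uninjected arrays, so the likeness of their values carries that sharing. Set against each other directly, 0 of 10 members passed in limma, beside 7.12% of all genes called, and 0 had an unadjusted p under 0.05. Klf5 was lower in Oct4-morpholino than in Sall4-morpholino embryos on every array, with a log2 difference of -0.60 (95% interval -1.29 to 0.09, adjusted p = 0.349). Klf2 had the same layout (log2 -0.43, adjusted p = 0.636), and 8.7% of all genes did. For Pou5f1 the difference was 0.06 (95% interval -0.32 to 0.44). The effect of the Nanog morpholino minus that of the Oct4 morpholino passed for 0 of 10 members, beside 2.15% of all genes, and minus that of the Sall4 morpholino for 0 of 10, beside 0.755%. No member had an unadjusted p under 0.05 in either. For Pou5f1, these differences were 0.12 (95% interval -0.41 to 0.66) and 0.19 (95% interval -0.35 to 0.72).

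Uninjected embryos gave a further comparison. With the Oct4 morpholino, Pou5f1 was 1.88-fold and Klf5 3.72-fold lower than in uninjected embryos at 44 h (adjusted p = 0.000871 and 0.000183), 2 of 10 beside 7.19% of genes called lower. With the Sall4 morpholino, Pou5f1 was 1.96-fold and Klf5 2.46-fold lower (adjusted p = 0.00111 and 0.0152), 2 of 10 beside 3.41%. On the arrays of the experiment alone both of these calls ended (adjusted p = 0.0777 for Pou5f1 and 0.0948 for Klf5). Without 1 array in turn the Pou5f1 call held in all 6 fits, and the Klf5 call ended in 3 of 6. With the Nanog morpholino, only Pou5f1 among the members passed, 1.75-fold lower (adjusted p = 0.00544), beside 3.21%. Every knockdown array lay below every uninjected array for 6 members with the Oct4 morpholino (Pou5f1, Esrrb, Klf2, Klf5, Tfcp2l1 and Tdgf1), beside 14.4% of all genes. It did so for 4 members with the Sall4 morpholino (Pou5f1, Esrrb, Klf2 and Klf5), beside 12.8%.

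No member passed between control-morpholino and uninjected embryos. In limma, 0 of 10 passed against uninjected embryos at 44 h on the Oct4 and Sall4 arrays (background 0.103%), at 44 h in the Nanog experiment (0.445%) and at 20 h in the Nanog experiment (0.0903%). At 44 h 0 members had an unadjusted p under 0.05, and at 20 h 2 had, Nanog and Esrrb. Klf5 read 742, 1233 and 910.0 in control-morpholino embryos, against 1209, 1444 and 1977 in uninjected embryos at 44 h (log2 -0.67, adjusted p = 0.913). Tdgf1 lay lower on every control-morpholino array than on any uninjected array at 44 h in both sets, as for 5.99% of all genes on the Oct4 and Sall4 arrays and 14.5% in the Nanog experiment. It read 1419.6, 1586 and 1758 in control-morpholino embryos, against 1939, 1901 and 1764 in uninjected embryos on the Oct4 and Sall4 arrays (log2 -0.24, adjusted p = 1). In the Nanog experiment it read 4938, 5802 and 5831 in control-morpholino embryos, against 6303, 6749 and 5842 in uninjected embryos (log2 -0.19, adjusted p = 0.977). Nanog at 20 h read 39.7, 103 and 191 in control-morpholino embryos, against 138, 433 and 419 in uninjected embryos (log2 -1.48, SE 0.53, adjusted p = 0.481).

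The effect of the Oct4 morpholino against uninjected embryos was tested for a difference between the times, with the separate 20 h experiment as a limit. It passed for Pou5f1, whose effect was lower at 44 h than at 20 h by a log2 difference of -1.14 (SE 0.26, adjusted p = 0.00847). It passed for Klf5 as well, at -2.17 (SE 0.48, adjusted p = 0.00567), so 2 of 10 members passed beside 5.65% of all genes. At 20 h Klf5 had read 381, 208 and 191 in Oct4-morpholino embryos, against 208, 206 and 196 in uninjected embryos. For the Sall4 morpholino, Pou5f1 passed at -1.01 (adjusted p = 0.0458), 1 of 10 beside 1.5%, but only 2 of 12 fits that left out 1 array kept the call. For the Nanog morpholino against its control, 0 of 10 passed in limma, beside 0.819%, and 2 had an unadjusted p under 0.05.

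Transcripts of earlier stages were read on the same arrays. Their lists were chosen with earlier results of these data known, so the counts carry no independent support. In uninjected embryos of the Nanog experiment, all 7 tested genes of a 2-cell-stage list were lower at 44 h than at 20 h, and 8 of 11 tested maternal oocyte transcripts were lower, beside 16.4% of all genes. At 44 h against control-morpholino embryos, 6 of the 7 tested 2-cell-stage genes were higher with the Oct4 morpholino, 2 with the Sall4 morpholino and 3 with the Nanog morpholino. Of all genes, 5.26%, 1.8% and 3.51% were called higher with these morpholinos in the same order. Of the 11 maternal transcripts, 1 was higher with the Oct4, 4 with the Sall4 and 2 with the Nanog morpholino. The summed intensity of the 2-cell-stage genes was 9341, 10440 and 7035 in Oct4-morpholino and 4548, 9814 and 6046 in Sall4-morpholino embryos, against 2718, 1852 and 1815 in the shared controls. In the Nanog experiment it was 23920, 14090 and 9632 in Nanog-morpholino embryos, against 10280, 4019 and 8940 in control-morpholino embryos. These groups overlapped, and uninjected embryos of that experiment had 5610, 5883 and 5831. Sall4-morpholino replicate 2 had both the highest such sum and the lowest Pou5f1 of its group, and Nanog-morpholino replicate 1 had both the highest sum and the lowest Pou5f1, Esrrb, Klf2, Klf5 and Zfp42. In Oct4-morpholino embryos the order was the opposite: replicate 2 had the highest sum and the highest Pou5f1 of its group, and replicate 3 the lowest of both. Not all members followed Pou5f1. Nanog and Tdgf1 were lowest in Nanog-morpholino replicate 2, and Tfcp2l1 in Nanog-morpholino replicate 3. With the Sall4 morpholino, Nanog, Klf2, Klf5 and Zfp42 were lowest in replicate 2, but Esrrb was lowest in replicate 3 and Tfcp2l1 in replicate 1. Maternal sums peaked in other arrays, at 4889 in Sall4-morpholino replicate 1 and 26540 in Nanog-morpholino replicate 2. The part of these transcripts in the members' values was not tested.

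Genes listed as markers of other cell types were read in the same way, which does not show that such cells were present. These lists too were chosen with earlier results of these data known. Of 15 trophectoderm genes tested, 1 was higher and 3 were lower with the Oct4 morpholino, 3 were lower with the Sall4 morpholino, and 1 was higher and 2 were lower with the Nanog morpholino, each against control-morpholino embryos at 44 h. Of all genes, 5.26% were called higher and 6.23% lower with the Oct4 morpholino, 2.12% lower with the Sall4 morpholino, and 3.51% higher and 1.52% lower with the Nanog morpholino. The summed intensity of the trophectoderm genes ran from 7191 to 9949 with the Oct4 and 7000 to 9651 with the Sall4 morpholino, against 10200 to 11480 in controls. It ran from 17580 to 24290 with the Nanog morpholino, against 28950 to 32350 in its controls. In each knockdown every array thus had a lower trophectoderm sum than every control array. Such sums weigh the brightest genes most and do not describe the list as a whole. With the Oct4 morpholino, Aqp3 averaged 228.9 against 1887 in controls. Tfap2c was nearly level there, at 3761 against 3844, and Hand1 was higher, at 2012 against 1342. Of the 7 primitive endoderm genes tested 0 passed, as did 0 of 7 granulosa genes and 0 of 5 blood and stroma genes, in these 3 comparisons. Granulosa sums ran from 1212 to 1711 with the Oct4 and 1463 to 2014 with the Sall4 morpholino, against 898 to 1504 in controls, and from 3601 to 4544 with the Nanog morpholino, against 2679 to 5028 in its controls. The members' own sum ran from 7790 to 8904 with the Oct4 and 6963 to 10550 with the Sall4 morpholino, against 10700 to 12640 in controls, and from 24570 to 29450 with the Nanog morpholino, against 37040 to 37570 in its controls. The part of these markers in the members' values was not tested.

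Among a wider list of 36 pluripotency-related genes, of which 35 were on the array and 32 were tested, a handful passed at 44 h. With the Oct4 morpholino, 4 were lower and 1 was higher than in control-morpholino embryos, beside the 6.23% of all genes called lower and 5.26% called higher. The largest fall was that of Jarid2, a cofactor of the Polycomb complex PRC2. Jarid2 read 666, 412 and 515 in Oct4-morpholino embryos, against 2405, 2689 and 2327 in control-morpholino embryos (log2 -2.21, adjusted p = 5.07e-09). Sall4, the zinc-finger factor targeted by the other morpholino, read 1627, 1618 and 1511 with the Oct4 morpholino, against 2744, 3497 and 3266 with the control morpholino (log2 -0.99, adjusted p = 0.000741). The RNA-binding protein gene Lin28a (log2 -0.62, adjusted p = 0.0327) and the F-box gene Fbxo15 (-0.59, adjusted p = 0.00369) were lower too, and Mycn, a Myc-family factor, was higher (0.57, adjusted p = 0.0128). Without 1 array in turn, the calls of Jarid2, Sall4 and Fbxo15 held in all 6 fits, that of Mycn in 4 and that of Lin28a in 2. On the arrays of the experiment alone the calls of Fbxo15, Mycn and Lin28a ended, and that of Lin28a also ended with quantile normalization. Those of Jarid2 and Sall4 held under all 10 other settings.

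With the Sall4 morpholino, the T-box factor Tbx3 was lower (log2 -2.06, adjusted p = 0.0417) and Mycn higher (0.54, adjusted p = 0.0413). Of all genes, 2.12% were called lower and 1.8% higher. The Tbx3 value rests on Sall4-morpholino replicate 2: without it the log2 difference was -0.84 (adjusted p = 0.478). Its call held in 2 of 6 fits that left out 1 array, and ended with the replicate block (adjusted p = 0.063) and on the arrays of the experiment alone (0.266). The Mycn call held in 1 of 6, and ended on the arrays of the experiment alone and with the mean of all probe sets of a gene. Sall4 transcript itself read 4176, 3279.7 and 3531 in Sall4-morpholino embryos, against 2744, 3497 and 3266 in control-morpholino embryos, and did not pass (adjusted p = 0.708). With the Nanog morpholino, Jarid2 alone passed, beside 1.52% of all genes called lower. It read 3763, 4568 and 4682 against 7331, 7869.7 and 6416 in control-morpholino embryos (log2 -0.73, adjusted p = 0.0253). That call held in 3 of 6 fits without 1 array, and ended with the mean of all probe sets of a gene. The Jarid2 effect differed between the Nanog and the Oct4 morpholino by 1.48 on the log2 scale (adjusted p = 0.00281). Set directly against Sall4-morpholino embryos, Oct4-morpholino embryos had lower Jarid2 (-1.57), Sall4 (-1.19), Fbxo15 (-0.66) and Lin28a (-0.63) and higher Gbx2, a homeobox factor (2.17), each with an adjusted p of 0.0401 or less. Of all genes, 3.44% were called lower there and 3.68% higher. The calls of Jarid2, Sall4 and Fbxo15 held in all 6 fits without 1 array, that of Gbx2 in 3 and that of Lin28a in 2. On the arrays of the experiment alone those of Fbxo15, Lin28a and Gbx2 ended. The Lin28a call also ended with array weights, and the Gbx2 call with the larger pseudocount.

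At 20 h, 4 of the 32 wider-list genes were lower with the Oct4 morpholino than in uninjected embryos, beside 1.84% of all genes, and 0 passed with the Sall4 or the Nanog morpholino. They were Sall4 (log2 -0.76), the KH-domain gene Dppa5a (-0.85), the 5-methylcytosine dioxygenase gene Tet1 (-1.59) and Rif1, a replication-timing factor (-0.53), with adjusted p-values of 0.0123 to 0.0478. Without 1 array in turn, the call held in 2 of 6 fits for Sall4, 3 for Dppa5a, 4 for Tet1 and 1 for Rif1. On the arrays of the experiment alone all 4 calls ended. Of 10 other settings, 9 kept the calls of Sall4 and Dppa5a, 8 that of Tet1 and 6 that of Rif1. The list was partly drawn up in an earlier analysis of these data, and its counts carry no independent support. Over time in uninjected embryos of the Nanog experiment, 5 were higher at 44 h and 4 were lower. Of all genes, 9.46% were called higher and 16.4% lower. The higher ones were Tet2, another such dioxygenase (log2 3.77), the HMG-box factor Sox15 (2.49), Tet1 (1.42), the nuclear receptor Nr5a2 (1.08) and Jarid2 (0.69), and the lower ones Il6st, the gp130 receptor subunit (-2.59), Gbx2 (-1.98), the signal transducer Stat3 (-1.84) and the Myb-family factor Mybl2 (-0.82). The calls of Tet2, Sox15, Tet1 and Stat3 held in all 6 fits without 1 array, that of Gbx2 in 5, those of Jarid2, Il6st and Mybl2 in 4 and that of Nr5a2 in 1.

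The genes Esrrb, Klf4, Klf5 and Tfcp2l1 had further probe sets, which did not always move with the brightest one. Tested over all 35399 probe sets that passed the filter, 8.85% were called with the Oct4 morpholino against controls at 44 h. The 3 Klf5 probe sets had log2 differences of -1.22 (1451021_a_at, adjusted p = 0.0196), -1.27 (1430255_at, adjusted p = 0.063) and -0.49 (1451739_at, adjusted p = 0.809) there. With the Nanog morpholino, where 5.29% of probe sets were called, the same 3 had -0.88, -0.95 and -1.87 in that order, and none passed. Over time in uninjected embryos of the Nanog experiment all 3 rose, by 1.67, 1.96 and 2.95 on the log2 scale, beside 23.2% of probe sets called. Of the 3 Esrrb probe sets, 2 rose over time (3.19 for 1436926_at and 1.82 for 1441921_x_at), while 1422986_at had 0.63 and did not pass (adjusted p = 0.193). The second Klf4 probe set, 1417395_at, had 0.52 with the Oct4 morpholino (adjusted p = 0.173). A second Tfcp2l1 probe set, 1460715_x_at, read 0.85 to 6.44 on the Oct4 and Sall4 arrays, near the floor, and had a log2 difference of -0.06 with the Oct4 morpholino.

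**Figure D4:**
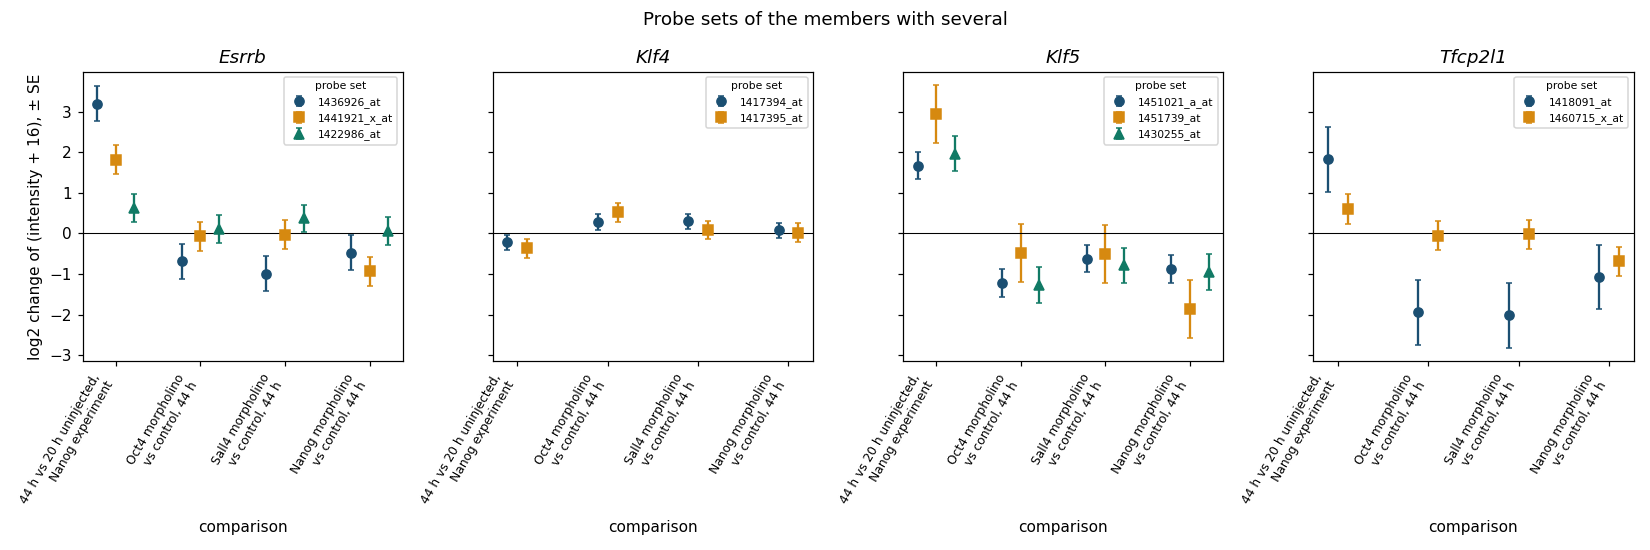
Log2 difference with its SE for every tested probe set of Esrrb, Klf4, Klf5 and Tfcp2l1 in 4 comparisons: the Oct4, Sall4 and Nanog morpholinos against control-morpholino embryos at 44 h, and 44 h against 20 h in uninjected embryos of the Nanog experiment. The 3 Klf5 probe sets lie below 0 with every morpholino and above 0 over time, while the Esrrb probe sets spread around 0 with the Oct4 morpholino.

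Group means were compared in shape across all 14 groups, as Pearson correlations of mean log2 values centred separately in the 6 groups of the Nanog experiment and the 8 others. The 14 points share their intensity scale within each set and include both times, so these correlations are a description. Nanog and Tdgf1 had r = 0.981, Klf2 and Tdgf1 0.977, and Nanog and Esrrb 0.951. Sox2 ran opposite to Klf2 (r = -0.958), Tdgf1 (-0.918) and Nanog (-0.883), and alongside Klf4 (0.902). Pou5f1 stood apart from its fellow members, with r between -0.172 for Klf4 and 0.645 for Tfcp2l1.

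The non-member genes most like Pou5f1 were Tbx3 (r = 0.963), Hsd17b4, which encodes a peroxisomal enzyme (0.92), and Rbpj, the DNA-binding partner of Notch (0.906). Tbx3 at 44 h read 494, 1039 and 681 with the Oct4 and 826, 71.8 and 1405 with the Sall4 morpholino, against 1691, 2067 and 2114 with the control morpholino. In the Nanog experiment it read 560.0, 2571 and 4450.5 with the Nanog morpholino, against 4391, 5224 and 4057 with the control morpholino. Sall4-morpholino replicate 2 and Nanog-morpholino replicate 1 were lowest, as for Pou5f1. With the Oct4 morpholino the arrays ordered differently: Tbx3 was lowest in replicate 1, and Pou5f1 in replicate 3. Most like Nanog were the mitochondrial ribosomal protein genes Mrps18a (0.982) and Mrps31 (0.976) and the cytokine signalling inhibitor Cish (0.976). Most like Sox2 were Ighm (0.985), which encodes an immunoglobulin heavy chain, Pcbd1, an enzyme of biopterin recycling (0.983), and Ndfip2, an adaptor of ubiquitin ligases (0.981).

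**Figure D5:**
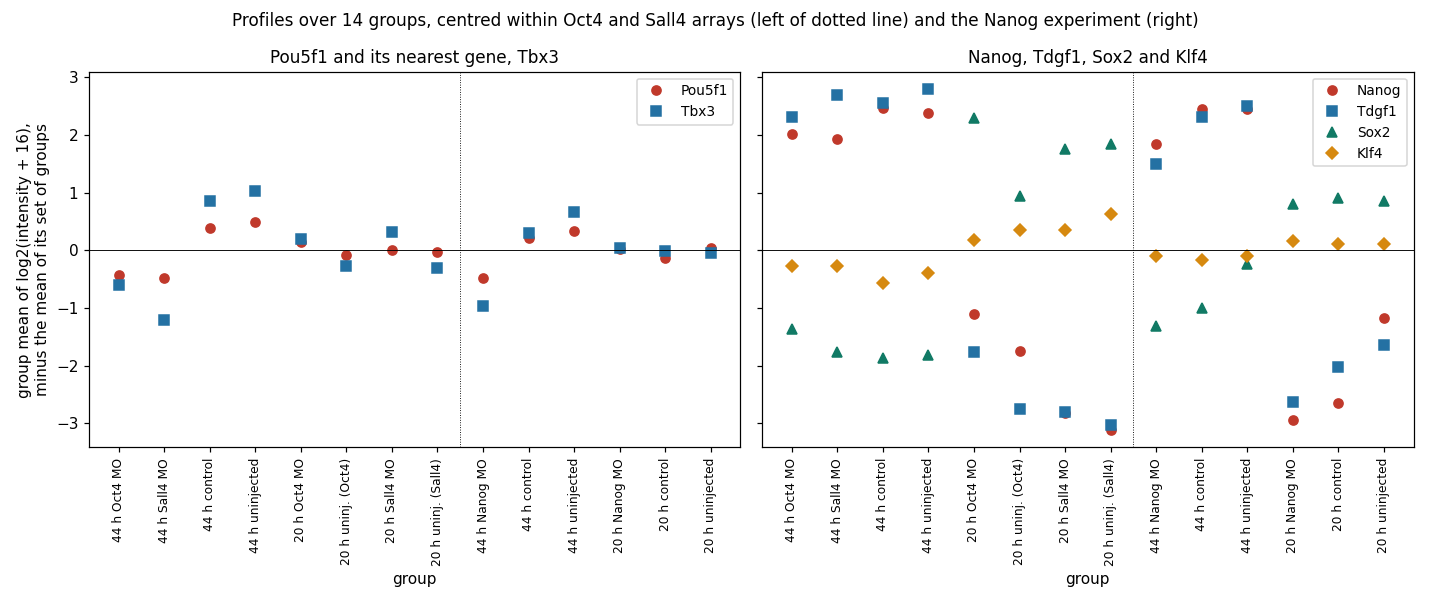
Centred group means of log2(intensity + 16) across the 14 groups, for Pou5f1 and Tbx3 on the left and for Nanog, Tdgf1, Sox2 and Klf4 on the right. Pou5f1 and Tbx3 are lowest in the knockdown groups at 44 h, whereas Nanog and Tdgf1 step up and Sox2 and Klf4 step down between 20 h and 44 h.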

How the data were processed

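Total RNA was isolated with a PicoPure kit and amplified with NuGEN WT-Ovation reagents before labelling with biotin, per the labels' protocols. The authors deposited 1 intensity per probe set and array on a linear scale, from 0.42 to 133546, while the sources used here do not give how intensity was computed or normalized. A value of exactly 1 occurs 46022 times. Samples were grouped by their titles.

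Of 45101 probe sets, the platform annotation gives 1 symbol to 34945, several to 932 and none to 9160, and 64 are controls. RefSeq held the Entrez identifiers of 34741 and changed 0 symbols. The probe set with the highest mean stood for a gene, which was tested if its mean log2(intensity + 16) in at least 1 group exceeded that of the table's median intensity of 71.15. All 42 arrays entered 1 limma model with a mean per group (28 residual degrees of freedom), and tests were two-sided moderated statistics with Benjamini-Hochberg adjustment over 15502 genes, or over 35399 probe sets where probe sets are described. Replicates correlated at 0.896 to 0.964, and no array was a copy of another. Motif positions are counted in bases from the motif's first letter to the start.

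The members, gene lists and rules were chosen with earlier results of these data known. Named genes are the members, wider-list genes that passed, and the 3 genes most like Pou5f1, Nanog and Sox2. The labels number the replicates without stating a pairing, and the main model used none. Deviations of same-numbered arrays correlated at 0.112, 0.12 and 0.125 between control-morpholino and uninjected embryos of the Nanog experiment at 20 h. In the other comparisons such correlations ran from -0.047 to 0.138. These values are too low to establish a pairing. Alternatives changed the pseudocount, the filter, the normalization, the probe sets, the arrays fitted, the array weights, the replicate block and single arrays left out. Analyses used R 4.3.3, limma 3.58.1, Python 3.11.15, numpy 2.4.6, pandas 2.3.3 and matplotlib 3.10.9, and the fit was tested on simulated data.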

Additional observations from a re-analysis of the deposited data

Results flagged for a closer look

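For 3 member results, the effect of a morpholino against uninjected embryos differed between 44 h and 20 h in a test of the difference itself, and each of them rests on 20 h embryos of a separately labelled experiment. With the Oct4 morpholino, the effect on Pou5f1 was lower at 44 h than at 20 h by a log2 difference of -1.14 (adjusted p = 0.00847), and the effect on Klf5 by -2.17 (adjusted p = 0.00567). Both passed under each of 9 other settings and without each of 12 arrays. With the Sall4 morpholino, the effect on Pou5f1 was lower at 44 h by -1.01 (adjusted p = 0.0458). That call held under 5 of 9 settings and in 2 of 12 fits that left out 1 array.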

How the results depend on the processing

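For each comparison the number of members called was recomputed under 10 other settings and without each array. No called value changed sign, and 177 of 3294 values that passed in neither setting had the other sign. Outside the fits that left out an array, the count differed by more than 1.5 times in 3 cases: 1 with array weights for the Oct4 morpholino at 20 h (Sox2, adjusted p = 0.0173), against 0. It was 0 for the Sall4 morpholino at 44 h on the arrays of the experiment alone, against 1, and 2 for the Nanog morpholino at 44 h with the mean of all probe sets of a gene (Klf5 added, adjusted p = 0.0345), against 1. Without single arrays, members called ranged from 1 to 2 for the Oct4, 0 to 2 for the Sall4 and 0 to 1 for the Nanog morpholino at 44 h. Over time they ranged from 5 to 6 in uninjected, 6 to 7 in control-morpholino and 5 to 6 in Nanog-morpholino embryos of the Nanog experiment and from 8 to 9 on the Oct4 and Sall4 arrays, and in the other 7 comparisons from 0 to 0. With the replicate block, the counts were 2, 1 and 1 for the Oct4, Sall4 and Nanog morpholinos at 44 h, 5, 7, 5 and 9 over time, and 0 elsewhere. The block ended the call of Pou5f1 in the time difference of the Sall4 effect (adjusted p = 0.0712) and brought in Klf5 there (adjusted p = 0.0306), and changed no other member call. Median centring moved the median of all genes for the control morpholino against uninjected embryos of the Nanog experiment at 44 h to 0.008, against -0.093. On the Oct4 and Sall4 arrays some members were dim, where signal over background limits the size of a fold. These were Sox2 at 44 h, Nanog, Tdgf1 and Tfcp2l1 in some 20 h groups, and Tfcp2l1 on some knockdown arrays at 44 h. The causes of these changes were not tested.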
